A study of Homo sapiens with 3 samples.

Results

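Mucin-type O-glycosylation and sialylation were described through 45 protein-coding genes, of 19708 protein-coding and 58302 genes in all, in C4-2 cells. The genes were taken by symbol: every numbered GALNT, GCNT, ST3GAL, ST6GAL, ST6GALNAC and ST8SIA gene in the GENCODE annotation, with C1GALT1 and C1GALT1C1. C4-2 is a human prostate adenocarcinoma line derived from LNCaP, labelled wild type with no treatment named. Its 3 libraries of total RNA, replicates 1, 2 and 3, formed 1 group. The series also concerns neuroendocrine cells and depletion of neuropilin-2, neither of which was analysed here, and conditions were not compared. The labels do not say that the replicates came from separate cultures, and p-values therefore cover only how far these libraries differ, which can include technical differences.

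The libraries held 47513470 to 51200272 reads assigned to genes. Luminal prostate markers were present, as the label of the cells implies: 7 of 7 were detected, with summed levels of 3164 to 3190 TPM in the 3 libraries. TPM is a read count divided by exon length, then scaled so that all genes of a library sum to 1000000. Of 4 basal markers 2 were detected, KRT14 at a mean of 1.01 TPM and KRT15 at 0.203 TPM, and KRT5 and TP63 had 0 reads; the list summed to 1.01 to 1.31 TPM. Of 6 neuroendocrine markers 4 were detected, led by CHGA at 2.53 TPM and SYP at 2.29 TPM, with NEUROD1 at 0 reads and a sum of 5.12 to 6.29 TPM. Of 4 blood markers 1 was detected, CD14 at 0.572 TPM, with CD3E at 0 reads and a sum of 0.618 to 1.20 TPM. Of 5 fibroblast and endothelial markers 0 were detected, with COL1A2 at 0 reads and a sum of 0.0341 to 0.174 TPM.

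Mucin-type O-glycans are built in the Golgi one sugar at a time. GALNT enzymes attach N-acetylgalactosamine to serine or threonine, which gives the Tn antigen. C1GALT1, which needs the chaperone encoded by C1GALT1C1, adds galactose to make core 1, and GCNT enzymes branch it to core 2. Sialyltransferases then cap or stop the chain. ST6GALNAC1 adds sialic acid directly to Tn, ST3GAL1 and ST3GAL2 add it to core 1, and the ST8SIA enzymes add sialic acid to sialic acid. The symbol rule also takes in enzymes that work mainly on other carriers: ST6GAL1 acts on N-glycans, and ST3GAL5 and ST8SIA1 on glycolipids. Shortened, sialylated O-glycans such as sialyl-Tn are known from many carcinomas, prostate among them.

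A pair of sialyltransferases, ST3GAL1 and ST6GALNAC1, stood far above every other gene of the group. Together they held 44.9 ± 1.15% of the summed TPM of all 45 genes (SD, n = 3). The whole group summed to 740 ± 19.1 TPM and took 0.144 ± 0.00189% of all assigned reads. At least 10 reads in every library, the criterion for detection, were reached by 33 of the 45 genes (73.3%), against 71.8% of all protein-coding genes. A mean level of 1 TPM or more was found for 22 (48.9%), against 62.7% of protein-coding genes. Of these 22 genes, 16 reached 10 TPM. The median over all 45 genes was 0.07 in log2(TPM + 0.1), against 2.47 over all protein-coding genes. The group's median was the level of GALNT12, with a mean of 0.950 TPM, and the next gene above it was ST3GAL5 at 1.96 TPM. GALNT12 had 69, 55 and 21 reads in replicates 1, 2 and 3. Its level is uncertain, as 21.1% of its exon sequence is shared. Without replicate 3 the group's median was 0.41. The plot of levels by gene shows where the members of each family lie against 1 TPM.

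**Figure D1:**
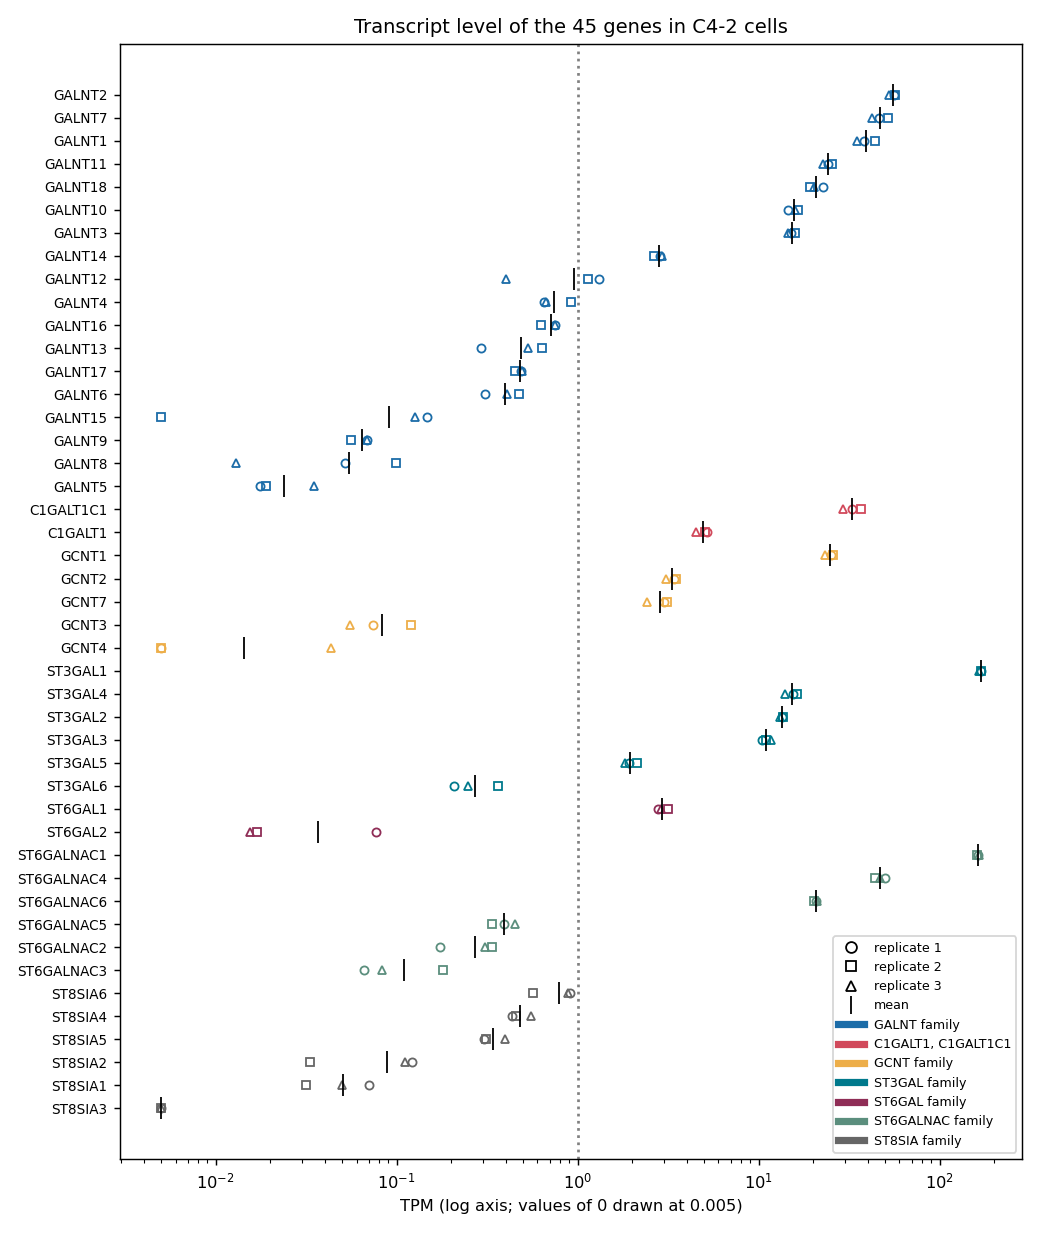
Transcript level in TPM (log axis) of the 45 genes in each of the 3 C4-2 libraries, grouped by family and ordered by mean within a family; open symbols are replicates, black bars are means, values of 0 are drawn at 0.005 and the dotted line marks 1 TPM. ST3GAL1 and ST6GALNAC1 lie above 160 TPM in every library, and no ST8SIA gene reaches a mean of 1 TPM.

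The initiating GALNT family was spread over several members. Of its 18 genes, 14 were detected and 8 reached 1 TPM, and the family summed to 224, 237 and 210 TPM in replicates 1, 2 and 3. GALNT2, one of the broadly expressed initiating enzymes, had 55.97, 56.8 and 52.4 TPM in replicates 1, 2 and 3, and its share of the family's TPM was 24.7 ± 0.575% (SD, n = 3). GALNT7, which acts on peptides that already carry a GalNAc, had 46.1, 51.7 and 42.6 TPM. GALNT1, the other broadly expressed initiator, had 38.3, 44.1 and 35.0 TPM. GALNT1 and GALNT7 were both highest in replicate 2 and lowest in replicate 3. Their ranges overlapped, though GALNT7 lay above GALNT1 within each library. GALNT11, known for O-glycosylation of the Notch receptor, had 24.3, 25.4 and 22.6 TPM, below all values of the 3 leading members. Over canonical transcript lengths GALNT11 had 48.3 TPM, above GALNT1 at 33.5 TPM and below GALNT2 at 63.9 TPM. Such values divide the same reads, counted over all exons, by the canonical length, and no reads were recounted. GALNT2 shares 13.3% of its exon bases with an overlapping gene, and the authors' counting would have dropped reads from those bases.

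The other GALNT genes at 1 TPM or more were GALNT18 (20.7 ± 1.68 TPM), GALNT10 (15.7 ± 1.02), GALNT3 (15.2 ± 0.750), which glycosylates the hormone FGF23, and GALNT14 (2.81 ± 0.159; all SD, n = 3). GALNT12, GALNT4, GALNT16, GALNT13, GALNT17 and GALNT6 were detected with means from 0.398 to 0.950 TPM. GALNT15, GALNT9, GALNT8 and GALNT5 were not detected, with at most 14 reads in any library. GALNT4 cannot be placed from its exon-length TPM. It shares 93.2% of its exon bases with the read-through gene POC1B-GALNT4, which leaves 366 bases on which a read could be assigned. Its 59, 76 and 60 reads gave 0.743 ± 0.148 TPM over all exon bases and 10.4 ± 2.08 TPM over the unshared bases (SD, n = 3). GALNT8, which shares 51.8% of its exon bases with neighbours, and GALNT12, which shares 21.1%, are uncertain for the same reason. With ST6GALNAC2, 4 of the 45 genes share at least 20% of their exon bases, against 11.6% of all protein-coding genes.

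The 2 genes of the core 1 step differed in level, with the chaperone gene above the enzyme gene. C1GALT1, the core 1 synthase, had 5.17, 5.04 and 4.52 TPM in replicates 1, 2 and 3. C1GALT1C1, its X-linked chaperone gene, had 32.7, 36.8 and 29.4 TPM. The libraries of the 2 genes did not overlap. The difference of C1GALT1 minus C1GALT1C1 was −2.72 ± 0.110 in log2(TPM + 0.1) (SD over 3 libraries), negative in 3 of 3 libraries (exact two-sided sign-flip permutation test, p = 0.25). With 3 libraries 0.25 is the smallest p this test can give, and the value adjusted over the 7 gene pairs tested was 0.25 for each. C1GALT1 has long exons (7805 bases against 1785 for C1GALT1C1), and without scaling by length the difference was −0.61. The difference of GALNT1 minus GALNT2 was −0.50 ± 0.116 (exact sign-flip permutation p = 0.25, negative in 3 of 3 libraries). It was −0.93 over canonical transcript lengths and −1.09 without scaling by length.

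Core 2 branching rested on 1 gene. GCNT1, the main core 2 enzyme, had 25.2, 25.7 and 23.2 TPM in replicates 1, 2 and 3 and held 79.8 ± 0.685% of the family's TPM (SD, n = 3). GCNT2, which makes the branched I antigen, had 3.43, 3.49 and 3.09 TPM. GCNT7 had 3.001, 3.11 and 2.41 TPM. The lowest value of GCNT1 was above every value of the other GCNT genes, and GCNT2 and GCNT7 overlapped. GCNT3, a mucin-type core 2 and core 4 enzyme, had 8, 12 and 6 reads, and GCNT4 had 0, 0 and 4 reads. Neither was detected.

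**Figure D2:**
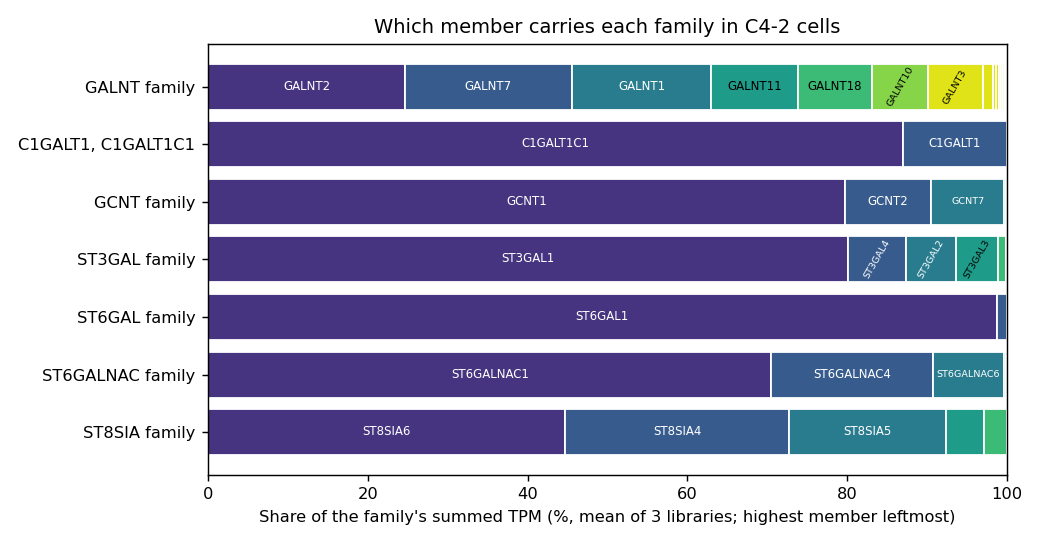
Share of each family's summed TPM taken by its members, as the mean of 3 C4-2 libraries in percent, with the highest member at the left of each bar. A single gene takes 70.5% or more in the C1GALT1, GCNT, ST3GAL, ST6GAL and ST6GALNAC groups, whereas GALNT2, the highest GALNT gene, takes 24.7%.

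ST3GAL1 had the highest mean TPM of the group, with values that overlapped those of ST6GALNAC1. This sialyltransferase caps core 1, and its substrate is the one that GCNT1 branches. It had 169.9, 170.4 and 165.6 TPM in replicates 1, 2 and 3, at the 96.3rd percentile of protein-coding genes, and held 80.1 ± 0.378% of the ST3GAL family's TPM (SD, n = 3). ST3GAL1 exceeded GCNT1 by 2.77 ± 0.0559 in log2(TPM + 0.1), or 6.81-fold, in 3 of 3 libraries (exact sign-flip permutation p = 0.25). The difference lay between 2.72 and 3.20 under all alternatives run. ST3GAL1 was steady between libraries, with a log2 CPM that varied by an SD of 0.0177 (CPM is a count scaled by library size alone).

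The other ST3GAL genes were lower. ST3GAL4, which acts on lactosamine chains, had 15.4, 16.3 and 14.0 TPM in replicates 1, 2 and 3. Over canonical transcript lengths its mean was 24.9 TPM, against 145 TPM for ST3GAL1. ST3GAL2, which like ST3GAL1 sialylates core 1, had 13.4, 13.6 and 13.2 TPM. ST3GAL3, which sialylates lactosamine on N-glycans, had 10.4, 11.0 and 11.7 TPM. ST3GAL4 lay above ST3GAL2 and ST3GAL2 above ST3GAL3 in all libraries, without overlap, but over canonical transcript lengths the order of the last pair turned, with 10.9 TPM for ST3GAL2 and 14.4 TPM for ST3GAL3. ST3GAL5, the synthase of the ganglioside GM3, had 1.93, 2.13 and 1.82 TPM. Its merged exons are 16318 bases long. The same reads divided by the 4366 bases of its canonical transcript gave a mean of 4.85 TPM against 1.96. ST3GAL6 had 22, 35 and 26 reads, or 0.272 ± 0.0795 TPM (SD, n = 3).

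The ST6GALNAC family was led by the sialyl-Tn synthase gene. ST6GALNAC1 had 164, 161 and 166 TPM in replicates 1, 2 and 3, at the 96.2nd percentile of protein-coding genes. Over canonical transcript lengths ST6GALNAC1 was the higher of the pair, with 150.1 TPM against 145 TPM for ST3GAL1. ST6GALNAC1 acts on the same Tn structure as C1GALT1, and it exceeded C1GALT1 by 5.03 ± 0.117 in log2(TPM + 0.1), or 32.7-fold, in 3 of 3 libraries (exact sign-flip permutation p = 0.25). The difference was lowest, at 3.87, without scaling by length. ST6GALNAC4, which adds a second sialic acid to sialylated core 1, had 50.003, 43.9 and 46.8 TPM. ST6GALNAC6, which works on glycolipids, had 20.7, 20.3 and 21.1 TPM. ST6GALNAC1, ST6GALNAC4 and ST6GALNAC6 did not overlap.

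The remaining ST6GALNAC genes were low. ST6GALNAC5, a ganglioside enzyme, was detected at 0.392 ± 0.0572 TPM (SD, n = 3). ST6GALNAC2 had 9, 16 and 16 reads and ST6GALNAC3 8, 20 and 10, and neither was detected. ST6GALNAC2 shares 57.2% of its exon bases with neighbours and is uncertain. Over its 1326 unshared bases it had 0.606 ± 0.194 TPM (SD, n = 3).

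Members of this family lie within 1 Mb of each other at 3 places in the GRCh38 genome. At all 3 places the neighbours differed in level. On chromosome 17, ST6GALNAC1 (76624761 to 76643838, minus strand) and ST6GALNAC2 (76565379 to 76586956, minus strand) are 37.8 kb apart, with means of 164 and 0.273 TPM. On chromosome 9, ST6GALNAC4 (127907886 to 127917038, minus strand) and ST6GALNAC6 (127885321 to 127905408, minus strand) are 2.48 kb apart, with 46.9 and 20.7 TPM. On chromosome 1, ST6GALNAC5 (76867441 to 77065711, plus strand) and ST6GALNAC3 (76074719 to 76634601, plus strand) are 233 kb apart, with 0.392 and 0.109 TPM. Both were below 1 TPM, and ST6GALNAC3 was not detected.

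ST6GAL1, which sialylates N-glycans, was low. It had 2.77, 3.16 and 2.90 TPM in replicates 1, 2 and 3. Its paralog ST6GAL2 had 10, 2 and 2 reads, or 0.0773, 0.0168 and 0.0155 TPM, and was not detected. ST6GAL1 exceeded ST6GAL2 by 4.505 ± 0.427 in log2(TPM + 0.1) in 3 of 3 libraries (exact sign-flip permutation p = 0.25), a value that depends on the pseudocount and ranged from 1.93 to 6.24.

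The ST8SIA family was the lowest, at 1.84, 1.40 and 2.00 TPM summed over its 6 genes in replicates 1, 2 and 3. ST8SIA6, which adds sialic acid to sialylated O-glycans, had 40, 23 and 39 reads (0.788 ± 0.190 TPM). ST8SIA4, one of the enzymes that make polysialic acid on NCAM, had 57, 55 and 72 reads (0.482 ± 0.0624 TPM). ST8SIA5, a ganglioside enzyme, had 81, 76 and 105 reads (0.339 ± 0.0516 TPM; all SD, n = 3). These 3 genes were the detected members. ST8SIA2, the other polysialyltransferase, had 12, 3 and 11 reads. ST8SIA1, the GD3 synthase, had 17, 7 and 12 reads, or 0.0699, 0.0314 and 0.0496 TPM. ST8SIA3 was without a read (0 in each of the 3 libraries), so its level could be up to 0.0631 CPM in the library with the fewest reads. Among all protein-coding genes 13.1% had 0 reads in every library. ST3GAL5 exceeded ST8SIA1 by 3.78 ± 0.268 in log2(TPM + 0.1) in 3 of 3 libraries (exact sign-flip permutation p = 0.25), which ranged from 1.49 to 5.08 with the pseudocount.

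**Figure D3:**
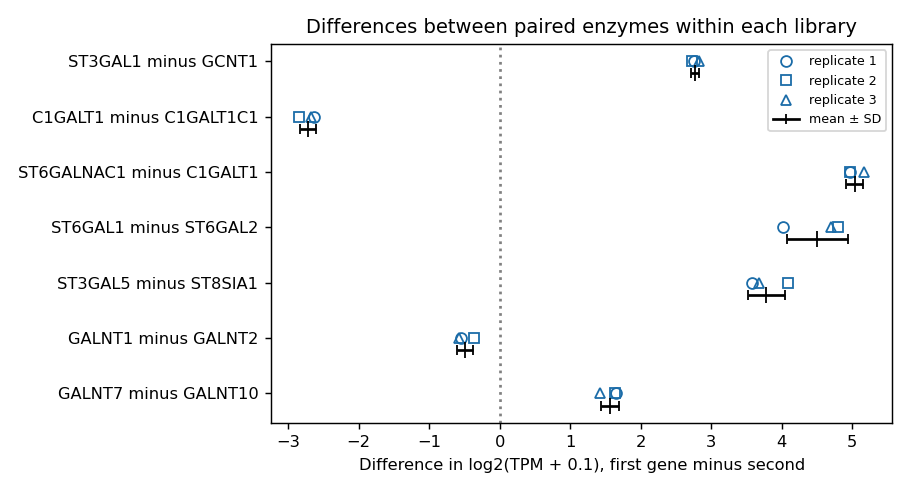
Difference in log2(TPM + 0.1), first gene minus second, for 7 gene pairs within each C4-2 library; open symbols are replicates and the black bar is the mean with its SD over 3 libraries. Each pair keeps its sign in 3 of 3 libraries, from −2.72 for C1GALT1 minus C1GALT1C1 to 5.03 for ST6GALNAC1 minus C1GALT1.

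GALNT7 exceeded GALNT10, the other enzyme that follows an earlier GalNAc. GALNT10 had 14.6, 16.6 and 15.9 TPM in replicates 1, 2 and 3, and the values of the 2 genes did not overlap. The difference of GALNT7 minus GALNT10 was 1.57 ± 0.130 in log2(TPM + 0.1), or 2.96-fold, in 3 of 3 libraries (exact sign-flip permutation p = 0.25), and 0.96 without scaling by length.

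Ordered by mean TPM, the 22 genes at 1 TPM or more formed a few steps with overlaps between them. The ranges of neighbours did not overlap in 10 of 21 cases. Overlap is of ranges over the 3 libraries, and some overlapping neighbours kept their order within each library. These were GALNT7 above GALNT1, GALNT1 above C1GALT1C1, GCNT1 above GALNT11 and GCNT2 above ST6GAL1. The other overlapping neighbours did not keep theirs. ST3GAL1 and ST6GALNAC1 overlapped, and both lay above GALNT2, which lay above ST6GALNAC4. ST6GALNAC4, GALNT7, GALNT1 and C1GALT1C1 overlapped each with the next and lay above GCNT1. GCNT1 overlapped with GALNT11, and GALNT18 with ST6GALNAC6. GALNT10, ST3GAL4 and GALNT3 overlapped in a chain, followed without overlap by ST3GAL2, ST3GAL3 and C1GALT1. GCNT2, ST6GAL1, GCNT7 and GALNT14 overlapped in turn, above ST3GAL5. This order is over merged exon lengths, and parts of it turned over canonical transcript lengths. There ST3GAL5 at 4.85 TPM lay above GCNT2 (4.45 TPM), C1GALT1 (4.05 TPM), ST6GAL1 (3.87 TPM), GALNT14 (3.47 TPM) and GCNT7 (1.88 TPM), and ST3GAL4 at 24.9 TPM lay above C1GALT1C1 (23.8 TPM) and GCNT1 (18.99 TPM).

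Between libraries, 10 of the 33 detected genes (30.3%) varied beyond counting noise, against 46.1% of all 21039 detected genes (chi-square test of the 3 counts against library size, Benjamini-Hochberg adjusted p under 0.05 over all tested genes). Of counts from 1 to 10 in these files 81.7% were even, as arises where both mates of a read pair are counted, and the test treats reads as independent. With the statistic halved for this, 7 of 33 (21.2%) varied, against 17.6% of all genes. The median SD of log2 CPM was 0.105 over the detected genes of the group and 0.0842 over detected protein-coding genes.

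The widest variation was in low GALNT genes. GALNT12 had 69, 55 and 21 reads in replicates 1, 2 and 3 (chi-square test, adjusted p = 4.44e-05, and 0.0188 with the statistic halved). Replicate 3 was the low one, and without it the adjusted p was 0.549. GALNT13, known from neural tissue, had 32, 64 and 58 reads (adjusted p = 0.0048, and 0.132 halved). Replicate 1 was the low one, and without it the adjusted p was 0.629.

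Among abundant genes the differences between libraries were small in size. GALNT1 had 3300, 3485 and 2997 reads (adjusted p = 2.91e-11) and GALNT7 5314, 5461 and 4880 reads (adjusted p = 4.71e-11), both highest in replicate 2. ST6GALNAC1 had 9494, 8541 and 9549 reads (adjusted p = 3.77e-06), lowest in replicate 2. These 3 genes remained under the threshold in all 7 alternatives run. ST6GALNAC4 had 2208, 1778 and 2054 reads (adjusted p = 3.74e-05, and 0.355 without replicate 2) and GALNT18 1374, 1077 and 1231 (adjusted p = 0.000293, and 0.135 without replicate 2). GALNT10 had 2575, 2686 and 2786 reads (adjusted p = 0.000236, and 0.909 without replicate 1). C1GALT1C1 had 980, 1011 and 876 reads (adjusted p = 0.00312), and its p was 0.204 without replicate 2, 0.117 without replicate 3 and 0.111 halved. ST3GAL3 had 777, 755 and 865 reads (adjusted p = 0.0306), and its p was 0.0928 without replicate 1, 0.686 without replicate 3 and 0.274 halved.

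**Figure D4:**
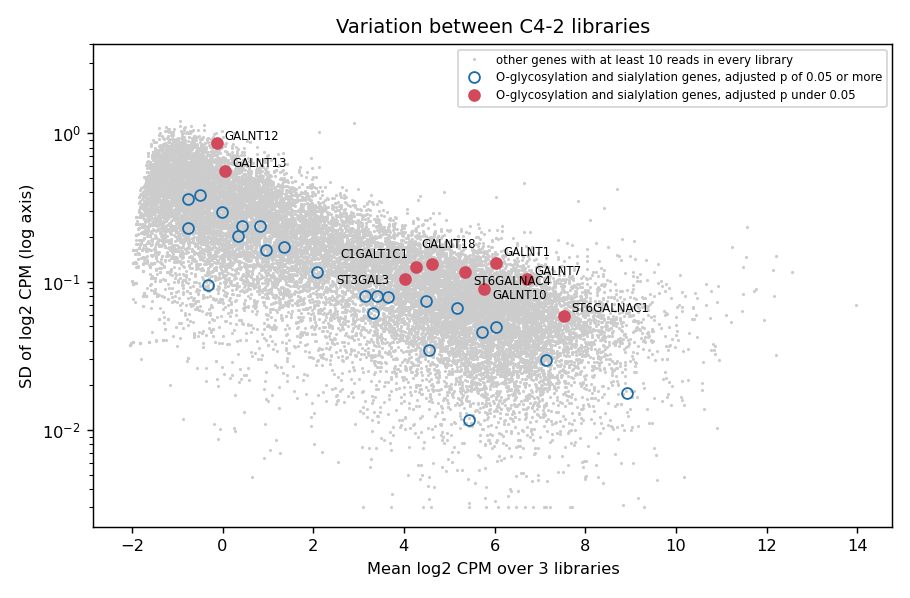
SD of log2 CPM over 3 C4-2 libraries (log axis) against mean log2 CPM for all 21039 genes with at least 10 reads in every library (grey) and the 33 detected O-glycosylation and sialylation genes (circles); filled circles are the 10 genes with an adjusted p under 0.05. GALNT12 and GALNT13 have the largest SD among the filled circles, and ST6GALNAC1 the smallest.

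The deviation of a gene in replicates 2 and 3 went with its base composition. Across the 22 genes at 1 TPM or more, the GC content of the canonical transcript and the deviation of log2 CPM from the gene's mean had a Pearson correlation of 0.06 in replicate 1, −0.70 in replicate 2 and 0.68 in replicate 3. Across 12344 detected protein-coding genes at 1 TPM or more these values were −0.05, −0.33 and 0.37. These are descriptions across genes that share their libraries, and deviations in the 3 libraries sum to 0. GALNT1 (37.8% GC), C1GALT1C1 (37.8%) and GALNT7 (38.2%) deviated by 0.14, 0.13 and 0.11 in replicate 2, whereas ST6GALNAC4 (63.9%) and GALNT18 (57.1%) deviated by −0.13 and −0.14. Other genes departed from this. C1GALT1, the lowest of the 22 in GC (35.9%), deviated by 0.004 in replicate 2, GALNT3 (37.6%) by 0.04 and GCNT1 (39.9%) by 0.02. ST3GAL4 (59.0%) went the other way, with 0.06 in replicate 2 and −0.08 in replicate 3. The part of GC content in the variation calls above was not tested.

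**Figure D5:**
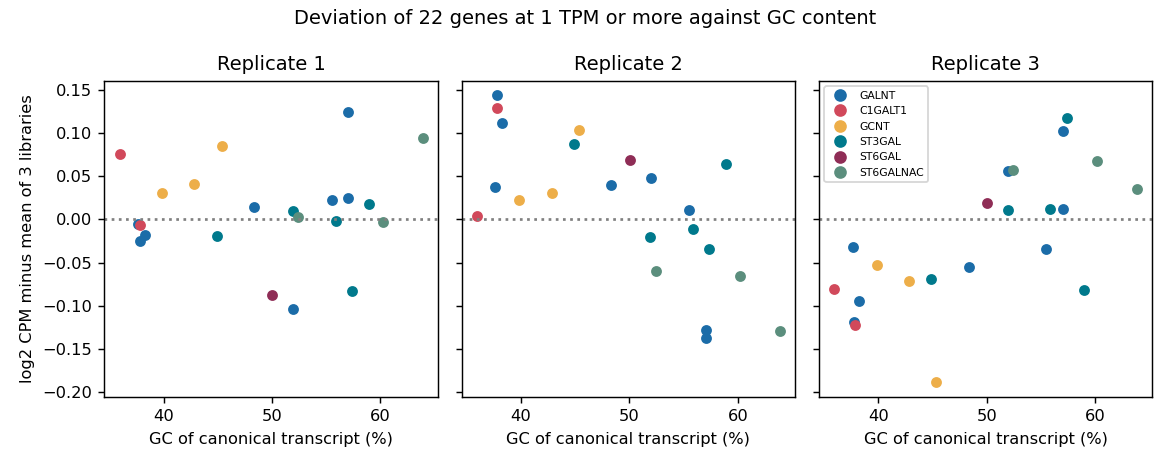
Deviation of log2 CPM from the mean of 3 C4-2 libraries against the GC content of the canonical transcript in percent, for the 22 genes at 1 TPM or more, in 1 panel per replicate; points are genes, coloured by family. Points fall from left to right in replicate 2 (Pearson −0.70) and rise in replicate 3 (0.68).

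The donor sugars that these enzymes use are made and carried by further genes. Of 5 genes of sialic acid supply, 5 were detected and 5 reached 1 TPM: CMAS, which activates sialic acid, at 95.2 ± 9.83 TPM, NANS at 59.4 ± 1.77, NANP at 13.5 ± 1.09 and GNE, the first enzyme of the pathway, at 2.26 ± 0.514 (SD, n = 3). The CMP-sialic acid transporter gene SLC35A1 shares 55.5% of its exon bases with other genes, and its 1.17 ± 0.115 TPM is uncertain. Of 8 genes of UDP-sugar supply, 8 were detected and 7 reached 1 TPM. UAP1, which makes UDP-GlcNAc and UDP-GalNAc, was highest at 276 ± 20.2 TPM, followed by GNPNAT1 at 52.3 ± 3.48 and GFPT1 at 45.97 ± 3.43 (SD, n = 3). GNPNAT1 shares 35.6% of its exon bases with other genes.

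Genes of core 3 and of chain extension split in level. Of 9, 6 were detected and 5 reached 1 TPM: the galactosyltransferase genes B4GALT2 (131 ± 2.77 TPM), B4GALT1 (107 ± 5.93), B4GALT3 (51.1 ± 0.920) and B4GALT4 (12.7 ± 1.34), and B3GNT2 (14.95 ± 0.518), which extends lactosamine chains (SD, n = 3). B4GALT3 shares 28.7% of its exon bases with other genes. B3GNT6, the core 3 synthase gene, had 2, 0 and 0 reads, and B3GNT3, which extends core 1, had 0, 4 and 0. Of 4 sialidase genes 2 were detected, the lysosomal NEU1 at 26.3 ± 0.478 TPM and the plasma membrane NEU3 at 18.9 ± 0.836. NEU2 had 0 reads in every library and NEU4 0, 2 and 3 reads.

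All 5 partner genes of ganglioside synthesis reached 1 TPM, with B4GALT5 at 48.6 ± 1.73 TPM, UGCG at 20.3 ± 2.63, B3GALT4 at 15.8 ± 1.69 and B4GALNT1 at 6.58 ± 0.175 (SD, n = 3). B4GALNT1 shares 26.7% of its exon bases with other genes. Mucin genes, which encode heavily O-glycosylated proteins, were mostly low. Of 15, 7 were detected and 3 reached 1 TPM: MUC5AC at 5.47 ± 0.290 TPM, MUC6 at 3.21 ± 0.282 and MUC1 at 1.02 ± 0.231. MUC20 followed at 0.700 ± 0.222 TPM, and MUC7, MUC13 and MUC15 had 0 reads in every library. The level of MUC20 is uncertain, because it shares 42.8% of its exon bases with other genes. By the chi-square test, 4 of 5 tested genes of sialic acid supply, 6 of 8 of UDP-sugar supply, 4 of 6 of chain extension, 1 of 2 sialidase genes, 2 of 5 ganglioside partners and 4 of 7 mucin genes varied between libraries, against 46.1% of all genes. With the statistic halved these counts were 1, 3, 1, 1, 1 and 0, against 17.6% of all genes. Of 3 related symbols that the rule left out, GALNTL6 was detected at 1.19 ± 0.0624 TPM, C1GALT1C1L had 2, 0 and 0 reads and GALNTL5 had 0 reads.

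Among non-coding genes named after members, the 2 with the highest TPM were picked out after their values were seen. ST8SIA6-AS1 had 48.3, 48.1 and 47.8 TPM in replicates 1, 2 and 3, whereas ST8SIA6 had 0.907, 0.568 and 0.889 TPM. ST3GAL1-DT had 15.2, 22.4 and 21.6 TPM, below ST3GAL1 in every library. The recorded counting options did not use strand, so the strand that a read came from cannot be told. ST8SIA6-AS1, ST8SIA6, ST3GAL1-DT and ST3GAL1 share 0.0% of their exon bases with other genes. ST8SIA6-AS1 (chromosome 10, 17386936 to 17413503) lies within the span of ST8SIA6 (17318383 to 17454330), and the part of intronic ST8SIA6 reads in the level of ST8SIA6-AS1 was not tested.

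Promoters were read from RefSeq (GRCh38.p14), as 250 bases before to 50 bases after the annotated start, for 32 of the 45 genes, taking the first listed start. CpG observed over expected, the count of CG against that from base composition, had a median of 0.824 in the 17 promoters of members at 1 TPM or more and 0.759 in the 15 of members below it. Over protein-coding promoters the medians were 0.844 for 10070 genes at 1 TPM or more and 0.373 for 5219 genes below it. The low members had quartiles of 0.636 and 0.932 against 0.180 and 0.728 for all low genes. ST3GAL1 and ST6GALNAC1, the highest of the 45 genes, are not among the matched genes. The 2 promoters below are the lowest and the highest in level among the matched genes: ST8SIA3, with 0 reads, and GALNT2, with 55.1 TPM. Capitals mark each CG, 24 in ST8SIA3 and 51 in GALNT2, and the observed over expected ratios are 0.835 and 1.04. ST8SIA3 lies on chr18:57352307-57352606 and GALNT2 on chr1:230066988-230067287, both on the plus strand.
ST8SIA3: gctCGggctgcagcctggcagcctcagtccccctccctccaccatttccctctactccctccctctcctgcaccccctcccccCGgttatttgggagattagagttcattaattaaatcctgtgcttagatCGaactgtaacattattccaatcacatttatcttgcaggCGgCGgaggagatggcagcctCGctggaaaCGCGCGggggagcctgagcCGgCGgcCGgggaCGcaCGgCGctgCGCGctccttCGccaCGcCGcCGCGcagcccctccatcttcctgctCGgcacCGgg
GALNT2: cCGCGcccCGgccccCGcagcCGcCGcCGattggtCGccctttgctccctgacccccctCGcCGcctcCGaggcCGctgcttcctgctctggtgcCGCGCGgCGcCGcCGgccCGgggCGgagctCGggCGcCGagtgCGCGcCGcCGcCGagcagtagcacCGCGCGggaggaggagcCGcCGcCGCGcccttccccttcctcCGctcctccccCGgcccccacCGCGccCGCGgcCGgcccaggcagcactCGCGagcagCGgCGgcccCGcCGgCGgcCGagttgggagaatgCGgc

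The GC box (GGGCGG or its reverse complement) was found in 21 of the 32 promoters (65.6%), against 59.3% of all 15289 protein-coding promoters. The TATA motif (TATAAA, either strand) was found in 0 of 32, against 9.60%. The androgen receptor half-site (AGAACA, either strand) was found in 4 of 32 (12.5%), against 11.1%. ST8SIA3 held none of the 3 motifs and GALNT2 held 1 GC box. These matches describe the letters in the window only.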

How the data were processed

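The authors deposited raw counts of reads per gene, 1 file per library. Per the file headers, featureCounts 1.6.3 counted reads over exons of Ensembl release 90 (GRCh38), with options that named only annotation, output and threads. Such a run ignores strand and drops reads shared by genes. Per the submitters' processing notes, STAR 2.7.0f was among the tools used on the reads. Per the labels' protocols, RNA was depleted of ribosomal RNA and libraries were strand-specific.

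Symbols and canonical transcripts are those of GENCODE release 44 (57532 of 58302 gene identifiers matched). TPM was computed from the counts and merged exon lengths. For canonical lengths the same counts, over all exons, were divided by the length of the canonical transcript. TMM factors (edgeR 4.0.16, R 4.3.3) scaled the chi-square test over all genes with at least 10 reads in every library. The test was tried on simulated counts, drawn as independent reads (Poisson). Those draws lack the counting of both mates, so they cannot show how the test behaves with it. DESeq2 1.42.0 size factors were an alternative. SD of log2 CPM used a prior count of 2. Gene pairs were compared by an exact sign-flip permutation test. Python 3.11.15, numpy 2.4.6, pandas 2.3.3, scipy 1.17.1 and matplotlib 3.10.9 were used. The genes, pairs and lists were chosen with earlier results of these data known. By rule, TPM per library is given for the 4 highest genes of each family at 1 TPM or more and for the paired genes, and reads for varying genes. Of the other lists the 4 highest genes and those with 0 reads are named, except 1 gene that is not reported here; further genes named beside them were chosen after their values were seen. Limits from a count of 0 use 3 reads and cover counting error only.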

Additional observations from a re-analysis of the deposited data

How the results depend on the processing

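No paired analysis was possible because the libraries form 1 group. All 7 pair differences kept their sign under every alternative (pseudocounts of 1 and 0.01, both other lengths, no length scaling, each library left out). Counts of detected genes, of genes at 1 TPM or more, of varying genes in the group and of separate neighbours stayed within 1.5 times. The group median was 0.96 with a pseudocount of 1, 2.33 over detected genes only, 0.97 over unshared exon bases and 0.42 over canonical lengths. It lay between −0.17 and 0.41 with a library left out. The medians of protein-coding genes were 2.69 with a pseudocount of 1, 3.997 over detected genes only and 2.38 over canonical lengths. In each of these settings the group median was the lower. All genes varying between libraries numbered 9694, 3699 with the statistic halved, and 5182 to 7087 with a library left out. Over canonical lengths the family totals were 255 TPM for GALNT, 27.9 for C1GALT1 with C1GALT1C1, 25.4 for GCNT, 201 for ST3GAL, 3.90 for ST6GAL and 0.956 for ST8SIA, and the order of the 22 genes had a Spearman correlation of 0.93 with that over merged exons. The canonical values divide the same counts by another length, which for ST8SIA6 (6994 bases) exceeds the merged exons counted (2627 bases). The causes of these shifts were not tested. Depth limits the genes under about 10 reads, where a single read pair moves a value.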
